A study of Danio rerio with 4 samples.

Results

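The gelsolin family consists of actin-binding proteins built from repeats of a shared gelsolin-type domain. In their classical form they are switched on by calcium, cut actin filaments, stay on the fast-growing end as a cap, and are released by membrane phosphoinositides, so that a filament network can be taken apart and rebuilt. Individual members are tied to particular tissues, such as villin to the microvilli of gut and kidney epithelium, and advillin, in mammals, to sensory neurons. In the developing heart, actin turnover is part of sarcomere assembly in cardiomyocytes and of protrusion in migrating endocardial cells (EdCs).

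The family was followed here in dissected zebrafish hearts at 48 hpf (hours postfertilization). The *egr3* mutant hearts were homozygous for *bns577* (*bns577*-/-), an 11-bp deletion in the early growth response transcription factor gene *egr3* that is carried by every cell of the animal. The control hearts came from their wild-type siblings (*bns577*+/+). Each genotype had 2 libraries of total RNA, each from a pool of 20 hearts, so a value averages over animals and over every tissue that stayed with the dissected heart. In such bulk samples, fewer cells of a type and less RNA per cell cannot be told apart.

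Members were taken by gene name, and the family itself was selected on one measured pattern, the listing of *scin* at 0 in both mutant libraries. Since that pattern is a contrast between mutants and wild types, the genotype differences of all members are given below as descriptions, without a test. Of the 8 genes named, *scin*, *scinla*, *scinlb*, *gsna*, *gsnb*, *vil1*, *avil* and *svila*, 7 were found among the 19661 genes of the table. No row carried *vil1*, the villin gene, or its older names *vil1l* and *zgc:55779*, and it was not analysed here. Across the 4 libraries, 6 members averaged 5 normalized counts or more, and *avil* stayed under that limit. The 7 members lay on 7 different chromosomes (2, 5, 6, 11, 12, 19 and 21), none of them chromosome 8, which carries *egr3*. In the deposited annotation, 5 of the 7 were assigned to the KEGG pathway for regulation of the actin cytoskeleton, and *avil* and *svila* to no pathway.

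The values derive from read counts per gene and were deposited as normalized counts in whole numbers. Their sums were 9161759 and 9313756 in the mutant libraries (replicates 1 and 2), against 9254724 and 9481943 in the wild-type libraries. *egr3* itself had 873 and 889 normalized counts in mutants, against 528 and 537 in wild types, which says nothing about the deletion, because an 11-bp gap leaves the transcript countable. Transcripts of the 2 heart tissues were abundant in every library, with 2336 to 2610 normalized counts for *myl7*, a myosin light chain gene of cardiomyocytes, and 1611 to 1917 for *kdrl*, an endothelial receptor gene. In an overview sheet that accompanies the data, the sample IDs of both replicate 2 libraries point to read files named for the opposite genotype. Genotypes here follow the sample labels, and each member is also described from the replicate 1 libraries alone, whose names do not conflict. The submitters state that the deletion was seen in the reads of the mutant samples.

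The replicates also shared a structure that bears on every spread given below. When the genotypes were averaged, the log2 difference of replicate 1 minus replicate 2 had an SD of 0.02. This was taken over 4834 genes whose means lay between 10 and 100 and whose values were all 3 or more. Counting of reads alone would give about 0.25, if the normalized values are taken as read counts. A gene that was higher in replicate 1 than in replicate 2 among mutants was therefore lower among wild types, by nearly the same factor. For the 6 members above the mean limit this balance lay between -0.17 (*scin*) and -0.02 (*scinlb*). The 2 libraries of a genotype are thus not 2 independent measurements in these values. For the same reason, values of replicate 1 are not independent of replicate 2, where the file names conflict. Read counts that were only scaled between libraries would not be balanced this closely, and the step that gave the balance is not given in the sources used here. Whether it also touched values listed at 0 was not tested.

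*scin* encodes scinderin, also called adseverin, a calcium-dependent severing and capping protein that in mammals is linked to the cortical actin of secretory cells. The gene (ENSDARG00000010728) lies on the minus strand of chromosome 19, 31347675 to 31372896 (positions as deposited, build danRer11). It was listed at 0 in both mutants, against 50 and 64 normalized counts in the wild types (replicates 1 and 2). Both wild-type libraries thus held a modest amount of *scin* transcript, and both mutant libraries were listed at 0. The replicate 1 libraries alone read 0 against 50. That reading is no separate check, because *scin* was chosen for its zeros in both mutants. No fold change is given, because the size of a ratio to a value listed at 0 would be set by the constant added to it.

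*avil* encodes advillin, the relative of villin named above. It showed the same order at a far lower level, with 0 in both mutants, against 5 and 2 normalized counts in the wild types, thus 0 against 5 within replicate 1 (ENSDARG00000059342, chromosome 11, 169394 to 183328). At so few normalized counts no difference between genotypes was readable. These 2 genes were the members listed at 0 in any library.

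**Figure D1:**
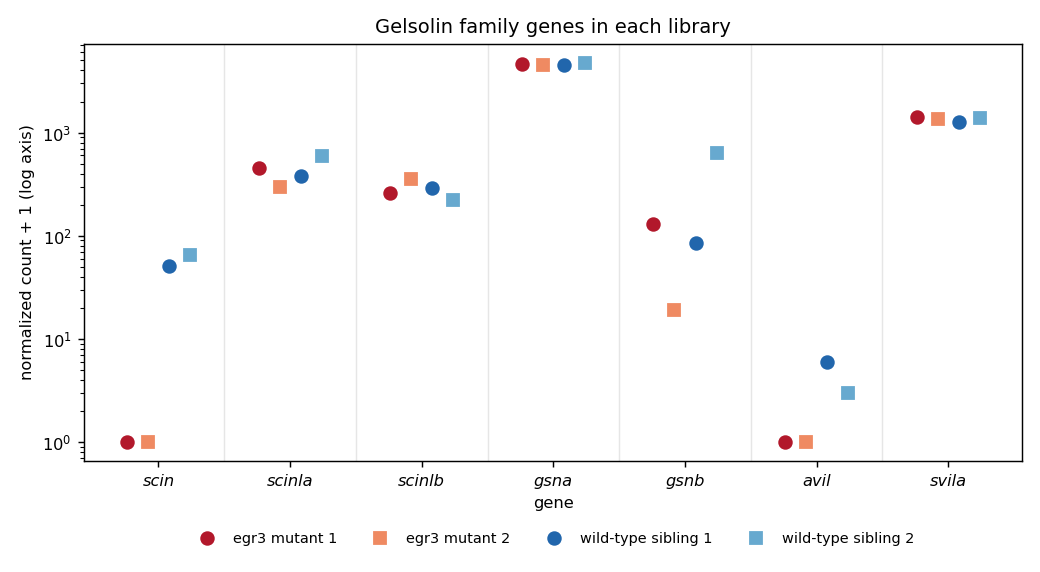
Normalized counts plus 1 (log axis) of the 7 gelsolin family genes found, with 1 point per library, mutants in red and orange and wild types in blue. *scin* and *avil* sit at the bottom in both mutants, *gsnb* spans from 18 to 627, and *gsna*, *svila*, *scinla* and *scinlb* hold overlapping genotypes.

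Of the 2 gelsolin genes, *gsna* varied least between libraries and *gsnb* most among the 5 members present in both genotypes. Gelsolin is the severing and capping protein after which the family is named. *gsna* had 4618 and 4533 normalized counts in mutants, against 4488 and 4733 in wild types (ENSDARG00000011459, chromosome 21, 17572421 to 17603218). The mutant values lay between the wild-type values, and the log2 difference of mutants minus wild types was -0.01 (standard error 0.04). Within replicate 1 it was 0.04 and within replicate 2 it was -0.06, both on the log2 scale.

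*gsnb* had 129 and 18 normalized counts in mutant replicates 1 and 2, against 85 and 627 in the wild-type replicates (ENSDARG00000045262, chromosome 5, 63294865 to 63302944). The genotypes overlapped, since mutant replicate 1 stood above wild-type replicate 1. The libraries of one genotype differed more than the genotypes did: mutant replicate 1 was 7.17 times mutant replicate 2, and wild-type replicate 2 was 7.38 times wild-type replicate 1. The mean log2 difference was -2.23 with a standard error of 1.50. It combined a difference of 0.60 within replicate 1 and of -5.05 within replicate 2, so the direction was opposite in the 2 replicate numbers. Paired across numbers, the difference was -2.18 (mutant 2 minus wild type 1) and -2.27 (mutant 1 minus wild type 2). These values lie close together because of the balance between replicate numbers, so they are not separate measurements. The sources used here do not name libraries of the same number as a pair, so the opposite directions depend on that pairing. By gene span, *gsnb* overlaps *si:ch73-37h15.2* and *si:ch73-376l24.2* on the opposite strand. Whether their exons overlap was not examined. The library kit does not mark strand, so reads from any stretch they share could not be assigned by strand. *si:ch73-37h15.2* had 337 and 428 normalized counts in mutants, against 378 and 308 in wild types, and *si:ch73-376l24.2* had 264 and 297, against 304 and 279. Neither had the wide range of *gsnb*.

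The scinderin-like genes *scinla* and *scinlb*, relatives of *scin* with the same family domains, were present in all 4 libraries. *scinla* had 455 and 297 normalized counts in mutants, against 376 and 597 in wild types (ENSDARG00000102415, chromosome 6, 24090950 to 24103666). It was highest in wild-type replicate 2 and lowest in mutant replicate 2, the same libraries as for *gsnb*, but over a narrower range. Its log2 difference was -0.37 (standard error 0.34), with 0.27 within replicate 1 and -1.00 within replicate 2. *scinlb* had 259 and 350 normalized counts in mutants, against 290 and 222 in wild types (ENSDARG00000058348, chromosome 2, 10396579 to 10450784). Here mutant replicate 2 was the highest library and wild-type replicate 2 the lowest. The log2 difference of *scinlb* was 0.25 (standard error 0.23), made up of -0.16 within replicate 1 and 0.65 within replicate 2. In both genes the genotypes overlapped, and each difference was close to its own standard error.

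*svila* encodes a supervillin, a large membrane-associated relative that binds actin and myosin and, as known from mammals, does not sever filaments. It had 1420 and 1350 normalized counts in mutants, against 1274 and 1388 in wild types (ENSDARG00000055075, chromosome 12, 23812530 to 23935333). The genotypes overlapped, with a log2 difference of 0.06 (standard error 0.06), of 0.16 within replicate 1 and of -0.04 within replicate 2.

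**Figure D2:**
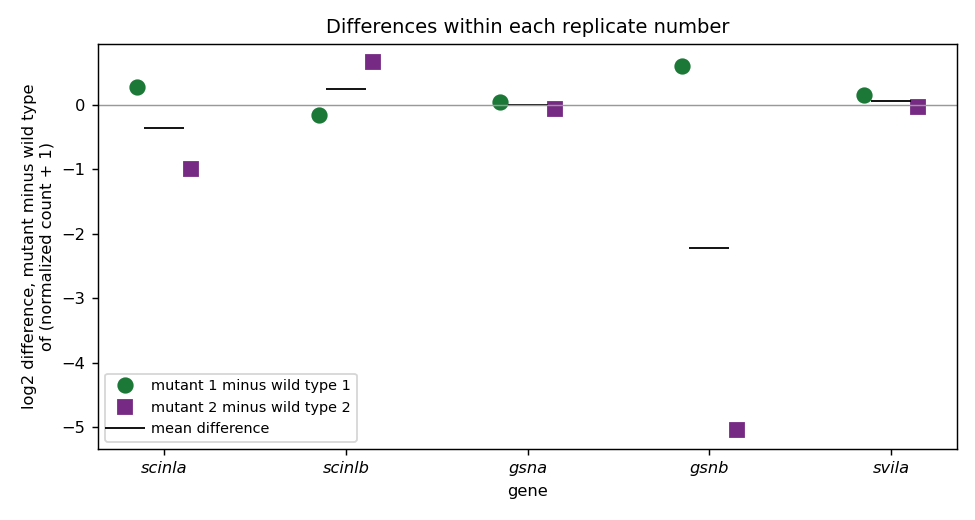
Log2 difference of mutant minus wild type, on normalized counts plus 1, within replicate 1 (green circles) and within replicate 2 (purple squares), with the mean as a black bar, for the 5 members present in both genotypes. The circle and the square of each gene lie on opposite sides of 0, from 0.60 and -5.05 in *gsnb* to 0.04 and -0.06 in *gsna*. Pairing by number is not named in the sources used here.

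Of the 7 members found, the difference had the same direction in both replicate numbers only in *scin* and *avil*, the genes listed at 0 in mutants. In the other 5 it was opposite. Given the balance between replicate numbers, this count of directions nearly repeats the overlap of genotypes given next. A gene listed at 0 in both mutants and above 0 in both wild types has the same direction by that listing. The opposite directions also depend on pairing by number. Paired across numbers, both differences had the same sign in *gsnb* (-2.18 and -2.27) and *scinla* (-0.34 and -0.39). The same held in *scinlb* (0.27 and 0.22) and *svila* (0.08 and 0.03), but not in *gsna* (0.01 and -0.04). The balance makes the crossed differences of a gene nearly equal beforehand, so their like signs are not separate measurements and nothing is read from them. Among the 6 members above the mean limit, *scin* was the 1 whose genotypes did not overlap, and 5 overlapped. Over all 17501 genes with this mean, the genotypes did not overlap in 50.5%, and both mutants were lower in 25.8%. *scin* met this condition by the way it was chosen, so nothing is read from the count. The median log2 difference of the 6 members was -0.19, against -0.00068 for all genes tested. That median does not depend on the constant added to *scin*, but it counts *scin*, chosen for its zeros, as the lowest member. Of the other 5 members, the middle value was that of *gsna*, -0.01, so no shift of the family is read from the median. Counts were not compared between family genes, since read counts grow with transcript length and no transcript lengths were used here.

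Genes with values like those of *scin* were looked up as a description. Both mutants were listed at 0 while both wild types had at least 50 normalized counts, the lower wild-type value of *scin*, in 3 genes of the table, *scin*, *BX000438.2* (0 and 0, against 126 and 128) and *si:dkey-269i1.4* (0 and 0, against 149 and 277). No gene had the opposite pattern at this level. As *scin* itself set this limit, nothing is read from these numbers. Without that minimum, 15 of the 17501 genes averaging 5 or more were listed at 0 in both mutants and 13 in both wild types, so a listing at 0 in 1 genotype was about as frequent in either direction. By Euclidean distance of log2(normalized count + 1) over the 4 libraries, the gene nearest to *scin* was *nr4a2b*, a nuclear receptor gene, at a distance of 0.57. *nr4a2b* had 0 and 0 normalized counts in mutants, against 47 and 43 in wild types, and so fell just under that limit. The next were *si:dkey-193p11.2* at 1.59, *BX000438.2* at 1.65, *foxi3a*, a forkhead factor gene of ionocyte precursors, at 1.78, and *stard15* at 1.94. *foxi3a* had 1 and 1 normalized counts in mutants, against 28 and 39 in wild types. These 5 genes lie on chromosomes 6, 12, 15, 21 and 14, so none is a neighbor of *scin*, and with 4 libraries such likeness describes the libraries only.

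Around *scin*, 21 genes lie within 500 kb on chromosome 19. None was called at an adjusted p under 0.05, and the lowest adjusted p was 0.137 (limma with Benjamini-Hochberg adjustment over all genes tested). The nearest gene, *arl4ab*, a small GTPase gene 5.83 kb away, had 3106 and 2951 normalized counts in mutants, against 3172 and 3457 in wild types. On the other side, *tmem106bb* had 262 and 251, against 254 and 275. No neighbor shared the zeros of *scin*. Among these 21 genes the genotypes did not overlap in 14 (66.7%), of which 8 were lower and 6 higher in mutants. Over all genes tested the genotypes did not overlap in 50.5%, and both mutants were lower in 25.8%.

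The part of the family outside the members was tested with limma, which fits each gene linearly and borrows variance across genes, after taking log2(normalized count + 1). Because of the balance between replicate numbers, its p-values rest on less independent spread than the model assumes. Of the 17501 genes in this fit, 1 (0.00571%) was called at an adjusted p under 0.05, and 3772 (21.6%) had p under 0.05 before adjustment. Even *atp1a1a.2*, a sodium pump gene, was not called (adjusted p = 0.122 from limma). It had 0 and 1 normalized counts in mutants, against 536 and 331 in wild types. A gene that was not called is therefore not shown to be unchanged, here or in the lists below. Of the other gelsolin superfamily genes listed, 6 were found and 5 had a mean of at least 5. None of the 5 was called by limma, and 0 had p under 0.05 before adjustment. Both mutants were higher in 2 and lower in 1, while over all genes tested the genotypes did not overlap in 50.5%. The median log2 difference of the 5 was 0.04.

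*capga* and *capgb* encode CapG-type proteins, which cap filaments without severing them. *capga* had 337 and 282 normalized counts in mutants, against 205 and 253 in wild types, so the genotypes did not overlap (log2 difference 0.44, standard error 0.16, adjusted p = 0.249 from limma). *capgb* had 241 and 284, against 290 and 255, and its genotypes overlapped (adjusted p = 0.828 from limma). Within replicate 2 both genes differed by nearly the same amount, 0.16 in *capga* and 0.15 in *capgb* on the log2 scale, whereas within replicate 1 the values were 0.71 and -0.27.

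*svilc*, a further supervillin gene, had 324 and 267 normalized counts in mutants, against 198 and 249 in wild types (log2 difference 0.40, standard error 0.17, adjusted p = 0.292 from limma). *svild*, which was picked from its protein name after its values were seen, had 690 and 847, against 838 and 707 (log2 difference -0.01, standard error 0.15). *svilb* had 4 and 5, against 4 and 3, and was under the mean limit. *flii*, the gene of the Flightless I protein with gelsolin domains and leucine-rich repeats, had 538 and 522 normalized counts in mutants, against 500 and 534 in wild types (adjusted p = 0.761 from limma). *vill*, a villin-like gene, had 14 and 10, against 15 and 21 (log2 difference -0.55, standard error 0.31, adjusted p = 0.383 from limma). In *svilc* both mutants were the higher libraries, in *vill* both were the lower ones, and neither difference passed the test.

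The wider set of actin regulators was read next to the family. Of 45 genes for turnover of filaments and monomers, 36 were tested, none was called by limma, and 4 had p under 0.05 before adjustment (3 higher and 1 lower in mutants). Over all genes tested, 21.6% had such a p. The genotypes did not overlap in 50% of these turnover genes, against 50.5% of all genes tested. The largest difference without overlap was in *tmsb*, a thymosin beta gene whose product holds actin monomers. It had 145 and 209 normalized counts in mutants, against 103 and 73 in wild types (log2 difference 1.00, standard error 0.28, adjusted p = 0.186 from limma). *limk1a*, a kinase gene whose product inactivates cofilin, had 13 and 18, against 26 and 19. *coro7*, a coronin gene, had 19 and 19, against 25 and 26.

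Of 44 genes for filament nucleation, 37 were tested, and again none was called by limma, with 8 at p under 0.05 before adjustment (4 in each direction). Over all genes tested, 21.6% had such a p. The genotypes did not overlap in 67.6% of these nucleation genes, against 50.5% of all genes tested. The formin gene *fmnl1a* had 13 and 35 normalized counts in mutants, against 10 and 4 in wild types (log2 difference 1.60, standard error 0.70, adjusted p = 0.297 from limma). *lmod1a*, a leiomodin gene of muscle filaments, had 17 and 16, against 26 and 28. *wasb*, a gene of the WASP activators of branched actin, had 100 and 123, against 84 and 71.

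Actin genes themselves were abundant. Of 9 actin rows tested, none was called by limma, 3 had p under 0.05 before adjustment, all lower in mutants, and both mutants were the lower libraries in 7. Over all genes tested, 21.6% had such a p in either direction and 25.8% had both mutants lower. The differences were small, such as 3241 and 3225 normalized counts of *actb1* in mutants, against 3405 and 3543 in wild types (log2 difference -0.10, standard error 0.03, adjusted p = 0.196 from limma). *acta1b* had 2178 and 2153, against 2279 and 2386. Both mutants were higher in 1 row, *actc1c*, with 62 and 93, against 57 and 39. The median log2 differences were -0.09 for the turnover genes, -0.05 for the nucleation genes and -0.09 for the actin genes.

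**Figure D3:**
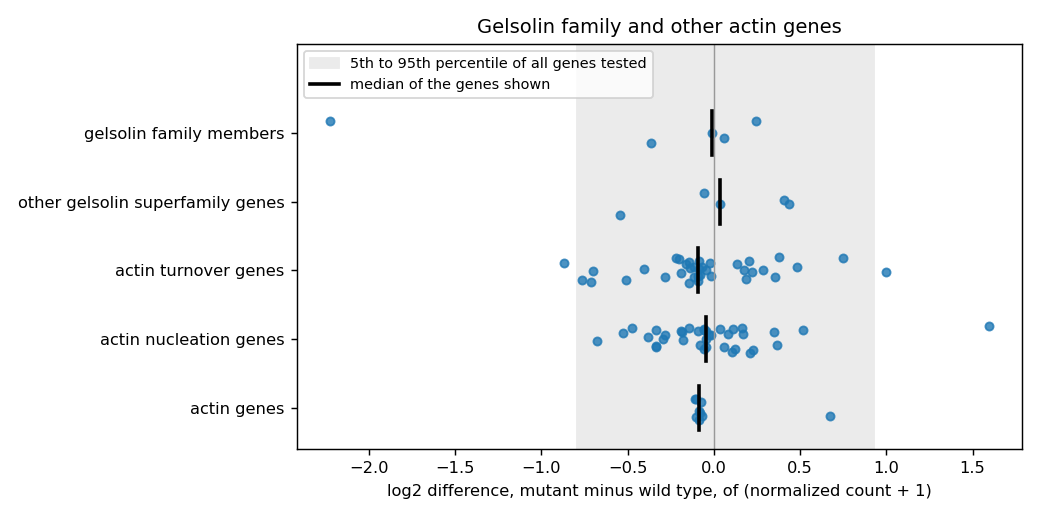
Log2 difference of mutant minus wild type for each gene tested, by list, with the median of the genes shown as a black bar and the range from the 5th to the 95th percentile of all genes tested (-0.79 to 0.93) in gray. *scin*, listed at 0 in mutants, is not drawn, and *gsnb* at -2.23 and *fmnl1a* at 1.60 lie farthest out.

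Transcripts of other tissues also varied between the libraries. Ionocytes are the salt-transporting cells of embryonic skin. Of 18 ionocyte markers, 16 were found and 13 tested, and both mutants were below both wild types in 12 of the 13, against 25.8% of all genes tested. None was called by limma at the adjusted threshold, and the median log2 difference was -1.99. Before adjustment 10 had p under 0.05, all lower in mutants, against 21.6% of all genes tested in either direction. *atp1a1a.2*, a sodium pump gene, had 0 and 1 normalized counts in mutants, against 536 and 331 in wild types, and *ca15a*, a carbonic anhydrase gene, had 0 and 0, against 26 and 10. *atp1b1b*, a sodium pump subunit gene, had 8 and 1, against 77 and 633. Among the defining markers, *foxi3a* was at 1 in both mutants and *gcm2* was at 2 or 3 in every library. The summed level of the list was 8290 and 8187 normalized counts in mutants, against 9449 and 10207 in wild types, and most of it was *atp1a1a.1*, a pump gene also abundant in heart (6545 and 6493, against 6841 and 7138). Several of the 13 differed little, such as *atp6v1aa* with 1531 and 1508, against 1634 and 1718. Because *scin* was chosen for its zeros in mutants, any list lower in mutants shares its order, so no link is read from it. Whether ionocyte transcripts have a part in the zeros of *scin* was not tested.

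A different pattern held for most epidermis and periderm markers. Of 24 such markers, 23 were found and 22 tested. In 21 of the 22, mutant replicate 1 was above mutant replicate 2 and wild-type replicate 2 above wild-type replicate 1, an order also seen in 4 of the 6 members above the mean limit (*gsnb*, *scinla*, *gsna* and *svila*), in 7 of the 13 ionocyte markers and in 45.5% of all genes tested. Given the balance between replicate numbers, the order in one genotype nearly fixes that in the other. Their summed level was 7576 and 2670 normalized counts in mutants, against 5865 and 27383 in wild types, so wild-type replicate 2 held the most and mutant replicate 2 the least. No marker of the list was at 0 in both libraries of a genotype. *krt4*, a skin keratin gene, had 2015 and 354 normalized counts in mutants, against 1765 and 10395 in wild types. None of the 22 was called by limma, and 2 had p under 0.05 before adjustment, *krt97* (16 and 7 in mutants, against 137 and 314 in wild types) and *agr2* (28 and 22, against 238 and 313). Over all genes tested, 21.6% had such a p. The 5 genes nearest to *gsnb* by the same distance, looked up after its values were seen, were *anxa1b* (0.71), *tcnbb* (1.06), *krt91* (1.09), *cldni* (1.31) and *cyt1l* (1.57), of which 4 belong to this marker list. *anxa1b*, an annexin gene, had 169 and 20 normalized counts in mutants, against 60 and 510 in wild types. Whether skin transcripts account for the range of *gsnb* was not tested.

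**Figure D4:**
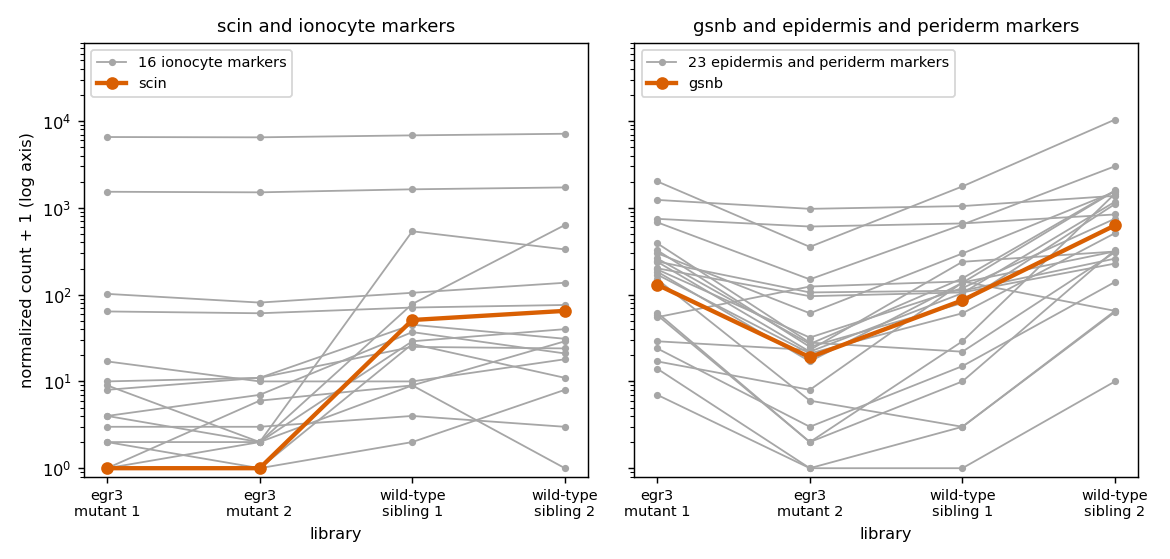
Normalized counts plus 1 (log axis) in the 4 libraries, with *scin* in orange over 16 ionocyte markers in gray (left) and *gsnb* in orange over 23 epidermis and periderm markers in gray (right). *scin*, chosen for its zeros, and some ionocyte markers, such as *atp1a1a.2* and *foxi3a*, are low in both mutants. Others, such as *atp1a1a.1* and *atp6v1aa*, differ little between genotypes. *gsnb* and most skin markers are higher in mutant replicate 1 than in mutant replicate 2, and higher in wild-type replicate 2 than in wild-type replicate 1.

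Markers of the cells in which relatives of *avil* and *vil1* are known were also read. Beside the counts at p under 0.05 before adjustment given here, the share over all genes tested was 21.6%. Of 12 gut and pronephros markers, 8 were found and 7 tested, none was called by limma, and 1 had p under 0.05 before adjustment. That gene, *cdx1b*, a gut homeobox gene, had 3 and 3 normalized counts in mutants, against 7 and 9 in wild types, and *cdh17*, a gut cadherin gene, was listed at 0 in both wild types. The list summed to 1279 and 1565 normalized counts in mutants, against 1579 and 1459 in wild types. Of 13 neuron markers, 11 were found and tested, none was called by limma, and 3 had p under 0.05 before adjustment, all higher in mutants. *stmn2a* had 13 and 10 normalized counts in mutants and was listed at 0 in both wild types, and *elavl3*, an RNA-binding protein gene of neurons, had 40 and 48, against 13 and 11. As no difference was readable in *avil*, this list is not compared with it. The list summed to 3172 and 3330, against 3117 and 3087. The largest part of the sum was *p2rx3b* (1547 and 1755, against 1926 and 1757), the 1 marker with both mutants lower. Both mutants were higher in 8 of the 11, and the median log2 difference was 0.45. The genotypes did not overlap in 81.8% of the list, against 50.5% of all genes tested. Of 11 macrophage and neutrophil markers, all 11 were tested and none was called by limma, with 1 at p under 0.05 before adjustment, *mfap4* (345 and 394 normalized counts in mutants, against 306 and 277 in wild types). Of the heart's own tissues, 9 myocardium markers summed to 45195 and 41183 normalized counts in mutants, against 45003 and 52743 in wild types, and 10 endocardium markers to 27172 and 30020, against 29291 and 27460. None of these was called by limma. Both mutants were lower in 7 of the 9 myocardium markers and higher in 0, with a median log2 difference of -0.10. In the endocardium list both mutants were lower in 4 and higher in 2. Over all genes tested, both mutants were lower in 25.8%, and the genotypes did not overlap in 50.5%. Before adjustment, 4 myocardium markers (all lower in mutants) and 3 endocardium markers (2 higher and 1 lower) had p under 0.05, against 21.6% of all genes tested.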

How the data were processed

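Single-end reads of 4 libraries were processed by the authors. The submitters' notes name Trimmomatic 0.39, STAR 2.7.10a, Picard 2.27.1, featureCounts 2.0.2, DESeq2 1.30.1 and the genome build danRer11. Duplicate and multi-mapping reads were removed before counting, which can compress the most abundant genes and remove reads shared by near-identical copies. The authors normalized the counts with DESeq2 and deposited them rounded to whole numbers, which makes them scores here and leaves the read depth unknown. The step that gave the balance between replicate numbers is not named in the sources used here.

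Genotypes came from the sample labels. Genes averaging 5 or more were fitted with limma 3.58.1 (R 4.3.3; lmFit, eBayes with a variance trend) on log2(value + 1), a scale that understates changes of low genes, with Benjamini-Hochberg adjustment. No block was used, as none is named in the methods. The fit was checked on simulated data with 4 independent libraries, so the check does not cover the balance between replicate numbers. With 2 libraries per genotype, p-values reflect at most the spread between these pools. Because of the balance, that spread is not measured independently in the 2 genotypes. Tables were made in Python 3.11.15 with pandas 2.3.3.

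Members and lists were chosen with earlier results of these data known. The genes named are all members, the other gelsolin superfamily genes found, up to 3 genes per list with the largest difference and no overlap, the 5 genes nearest to *scin*, and *egr3*. Other genes, such as *krt4*, *svild* and those nearest to *gsnb*, were chosen after their values were seen. Of the alternatives, 11 were planned and 1 was added. Reading the lists of other genes under these alternatives was not planned.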

Additional observations from a re-analysis of the deposited data

How the results depend on the processing

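Same-numbered libraries deviated from their genotype means in opposite directions, with a correlation of -0.99 across genes, which are not independent replicates. The 1 gene called over the whole table became 0 with the replicate block (858 at an unadjusted p under 0.05), 0 without the filter on low values (4319 unadjusted), 3 at a mean of at least 20 and 28 without the variance trend. Without each library in turn it was 0 to 0 (1155 to 1720 unadjusted), with 1 library left in a genotype and assumed to vary like the others. The crossed replicate block was chosen after seeing the data. It takes up the opposite deviations and leaves almost no residual spread, so nothing is read from its calls. In limma it gave 12169 calls, 119 of them in the lists of other genes. Those lists had 0 calls in the fit as reported (39 unadjusted) and in its other settings (10 to 47 unadjusted). Pseudocounts of 0.5 and 5 and scaling to library totals left 1 gene called.

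The number of members with non-overlapping genotypes was 1, and 2 to 5 without 1 library (4 without mutant replicate 1, 2 without mutant replicate 2, 5 without wild-type replicate 1 and 3 without wild-type replicate 2), since a genotype of 1 library overlaps less easily. It stayed at 1 with scaling to totals. The share over all genes is not given for these settings, so nothing about the members is read from these counts. For the 5 members present in both genotypes, filters, blocks and the variance trend cannot move the mean log2 difference, and leaving out 1 library moved it most. It ranged from -3.66 to -0.79 in *gsnb*, from -0.70 to -0.03 in *scinla* and from 0.03 to 0.46 in *scinlb*. Its sign changed in *gsna* (0.01 with scaling to totals, 0.0029 without mutant replicate 2 and 0.03 without wild-type replicate 2) and in *svila* (-0.0036 without wild-type replicate 1). An order of members by level was not run, for lack of transcript lengths. The authors' rounding limits what can be read in *avil*.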
